A study of Homo sapiens with 12 samples.

Results

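The genes described here are 10 that are used to recognise ovarian carcinoma or to follow it in blood: SLPI, WFDC2, MUC1, MUC16, MSLN, FOLR1, PAX8, WT1, ESR1 and PRAME. Every probe set that the array annotation assigns to exactly 1 of these symbols was taken, which gave 31 probe sets out of the 54675 on the array. ESR1 has 9 of them, PAX8 has 8, WFDC2 and MUC1 have 3 each, FOLR1 and WT1 have 2 each, and SLPI, MUC16, MSLN and PRAME have 1 each. The cells were IGROV-1, a human line derived from an ovarian carcinoma, and their RNA was hybridised to Affymetrix U133 Plus 2.0 arrays. The 12 arrays form 4 groups of 3. Clones shCXCR4 I and shCXCR4 II carry a short hairpin RNA (shRNA) against CXCR4, the receptor of the chemokine CXCL12, each from a different hairpin sequence. Mock cells carry a scrambled hairpin. All 3 of these were transfected with a lipid reagent and kept in 4 µg/ml puromycin for 30 days. Parental cells received neither plasmid nor selection. The Mock culture was a pool of clones and the knockdown cells were individually selected clones, so hairpin sequence, knockdown and clonal origin cannot be told apart in any comparison with a shCXCR4 group.

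The 10 genes have different roles. WFDC2 (the HE4 protein) and MUC16 (the carrier of the CA125 epitope) are secreted or shed into serum and are measured in patients with ovarian cancer. SLPI is a secreted inhibitor of leukocyte proteases with the same whey acidic protein fold as WFDC2. MUC1 is a transmembrane mucin, mesothelin (MSLN) is a membrane-anchored protein that binds MUC16, and FOLR1 is the folate receptor alpha, a target of antibody drugs. PAX8 and WT1 are transcription factors used to assign a tumour to the Müllerian or serous lineage, ESR1 is the estrogen receptor alpha, and PRAME is a cancer testis antigen that represses retinoic acid receptor signalling.

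All values are log2 expression values, 1 per probe set and array. CXCR4 averaged 7.09 ± 0.02 in shCXCR4 I and 6.62 ± 0.20 in shCXCR4 II, against 8.58 ± 0.07 in Mock and 8.33 ± 0.08 in Parental cells (SD, n = 3 arrays each). The array medians lay between 4.25 and 4.39, and arrays of a group correlated at 0.9955 to 0.9977 over all probe sets. The 3 Mock arrays had the lowest medians, at 4.28, 4.25 and 4.28. Of 8 epithelial marker genes 7 lay above the median of every array (EPCAM, KRT7, KRT8, KRT18, KRT19, CDH1 and ELF3), as did 1 of 7 leukocyte markers, 4 of 9 fibroblast markers, 4 of 7 endothelial markers and 4 of 7 mesothelial markers. The number of arrays limits the precision. Nothing in the labels says that the 3 arrays of a group came from separate cultures, so the p-values measure the spread between arrays, which may be technical.

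A gene start region was shown for MUC1, the member that was higher in shCXCR4 I on every one of its probe sets, and for PRAME, the member that was higher in each of the 3 transfected groups than in Parental cells. Of the 10 genes 7 were matched to a promoter window by RefSeq (GRCh38.p14), from 250 bases before to 50 bases after the gene start. SLPI, MSLN and FOLR1 were not matched. Capitals mark matches, on either strand, to the TATA box letters TATAAA and the GC box letters GGGCGG. The 3 GC boxes next to each other in MUC1 overlap by shared letters.
MUC1, chr1:155192866-155193165, minus strand: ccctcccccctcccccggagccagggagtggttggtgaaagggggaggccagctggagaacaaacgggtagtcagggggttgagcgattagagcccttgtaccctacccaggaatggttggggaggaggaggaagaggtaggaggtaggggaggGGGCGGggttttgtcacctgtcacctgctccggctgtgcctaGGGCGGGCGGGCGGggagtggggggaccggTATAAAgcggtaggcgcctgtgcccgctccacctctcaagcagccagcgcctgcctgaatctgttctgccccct
PRAME, chr22:22559216-22559515, minus strand: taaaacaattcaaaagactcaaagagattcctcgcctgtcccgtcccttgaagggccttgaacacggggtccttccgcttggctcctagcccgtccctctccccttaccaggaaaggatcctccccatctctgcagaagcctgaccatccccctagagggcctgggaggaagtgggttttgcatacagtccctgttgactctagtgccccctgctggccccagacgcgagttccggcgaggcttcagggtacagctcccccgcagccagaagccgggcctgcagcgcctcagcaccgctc
The MUC1 window held a TATA box that starts 24 bases before the gene start and 4 GC boxes, which start 96, 54, 50 and 46 bases before it. Neither motif was in the PRAME window. Of the 35116 promoter windows of this length 11.5% held the TATA box letters and 45% the GC box letters. The estrogen response element consensus (in 0.057% of all windows) and the STAT site letters TTCNNNGAA (in 7.66%) were in none of the 7 member windows. A match describes the letters of the window and not a bound site.

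Across the 31 probe sets the largest changes were in SLPI, MUC1, MSLN, FOLR1 and PRAME, and they differed between the 2 clones. Against Mock, 7 probe sets passed limma's test in shCXCR4 I at a Benjamini-Hochberg adjusted p under 0.05, 6 up and 1 down, where 17.6% of all 41091 single-symbol probe sets passed, 6.95% up and 10.6% down. In shCXCR4 II 6 passed, 2 up and 4 down, where 19.4% of all probe sets passed, 7.75% up and 11.7% down. The members' shares, 22.6% and 19.4%, were therefore near the background. Between the clones 7 of the 31 probe sets passed, 22.6%, against 4.11% of all probe sets. All 7 were higher in shCXCR4 I than in shCXCR4 II, a direction in which 2.74% of all probe sets passed, while 1.36% passed as lower. These 7 come from 5 of the 10 genes, since MUC1 gave 3 of them, and probe sets of a gene share its transcripts. The 10 genes were chosen with earlier results of these data known. The shares beside those of all probe sets are therefore a description and not a test. The count in shCXCR4 I against Mock was 4 without shCXCR4 I replicate 3 and 4 without Mock replicate 3. The 3 PAX8 and ESR1 probe sets among the 7 had changes of 0.28 at most.

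**Figure D1:**
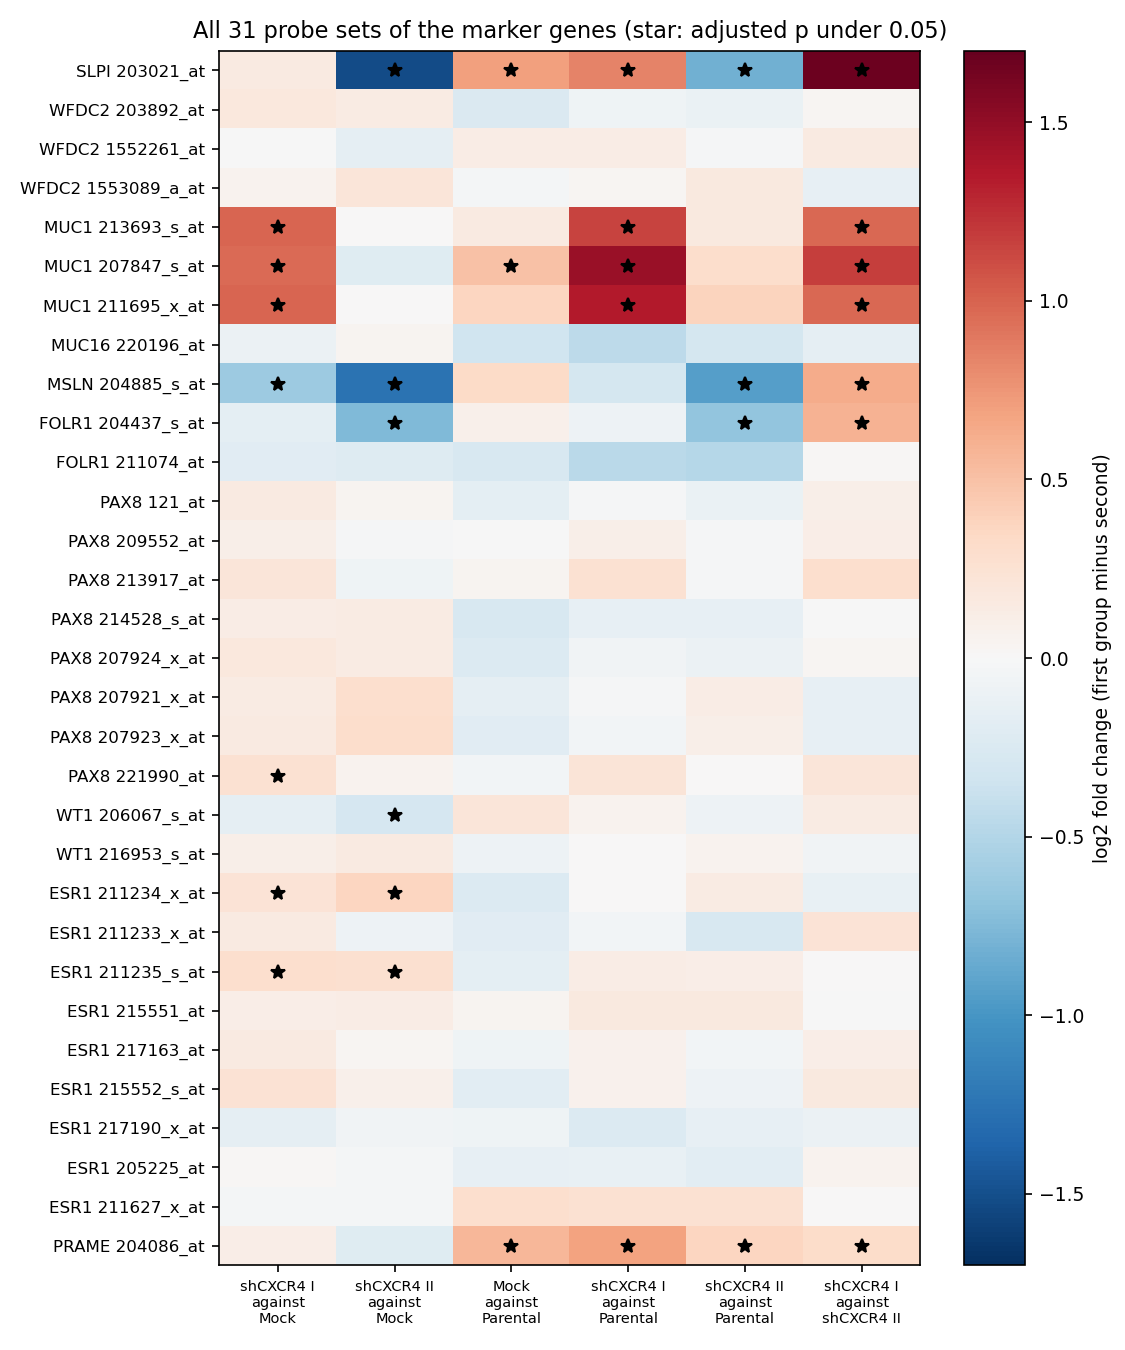
Log2 fold changes (colour, first group minus second) of all 31 probe sets of the 10 marker genes (rows) in the 6 comparisons (columns), with a star where limma's adjusted p was under 0.05. The column of shCXCR4 I against shCXCR4 II holds 7 stars, all on the higher side, and WFDC2 and MUC16 hold none in any column.

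SLPI was low in shCXCR4 II and high in shCXCR4 I. On its probe set 203021_at the log2 values were 9.13, 9.24 and 9.35 on the shCXCR4 II arrays. They were 10.89, 10.91 and 10.93 in shCXCR4 I, 10.70, 10.80 and 10.78 in Mock, and 10.07, 10.10 and 10.01 in Parental cells. No array of any group fell within the range of another group, and shCXCR4 II lay lowest. SLPI fell in shCXCR4 II against Mock by 1.52 on the log2 scale (SE 0.07, limma adjusted p = 4.39e-09), which left 34.8% of the Mock level. It fell by 0.82 against Parental cells too (SE 0.07, limma adjusted p = 2.73e-06). In shCXCR4 I it was 0.15 above Mock, which did not pass (95% interval 0.00 to 0.30, limma adjusted p = 0.163), and it rose by 0.85 against Parental cells (limma adjusted p = 1.95e-06). The difference of shCXCR4 I from Mock passed under 2 of the alternatives tried (limma adjusted p = 0.0422 and 0.0458). Mock itself exceeded Parental by 0.70 (limma adjusted p = 1.59e-05), so the size of the fall in shCXCR4 II depended on the control. The clones differed by 1.67 (SE 0.07, limma adjusted p = 2.6e-08), a 3.18-fold higher level in shCXCR4 I. The order of levels was shCXCR4 I, Mock, Parental and shCXCR4 II, and of the neighbours in this order shCXCR4 I and Mock did not differ past the test. In RNA from whole cultures, fewer expressing cells and less RNA per cell cannot be told apart.

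**Figure D2:**
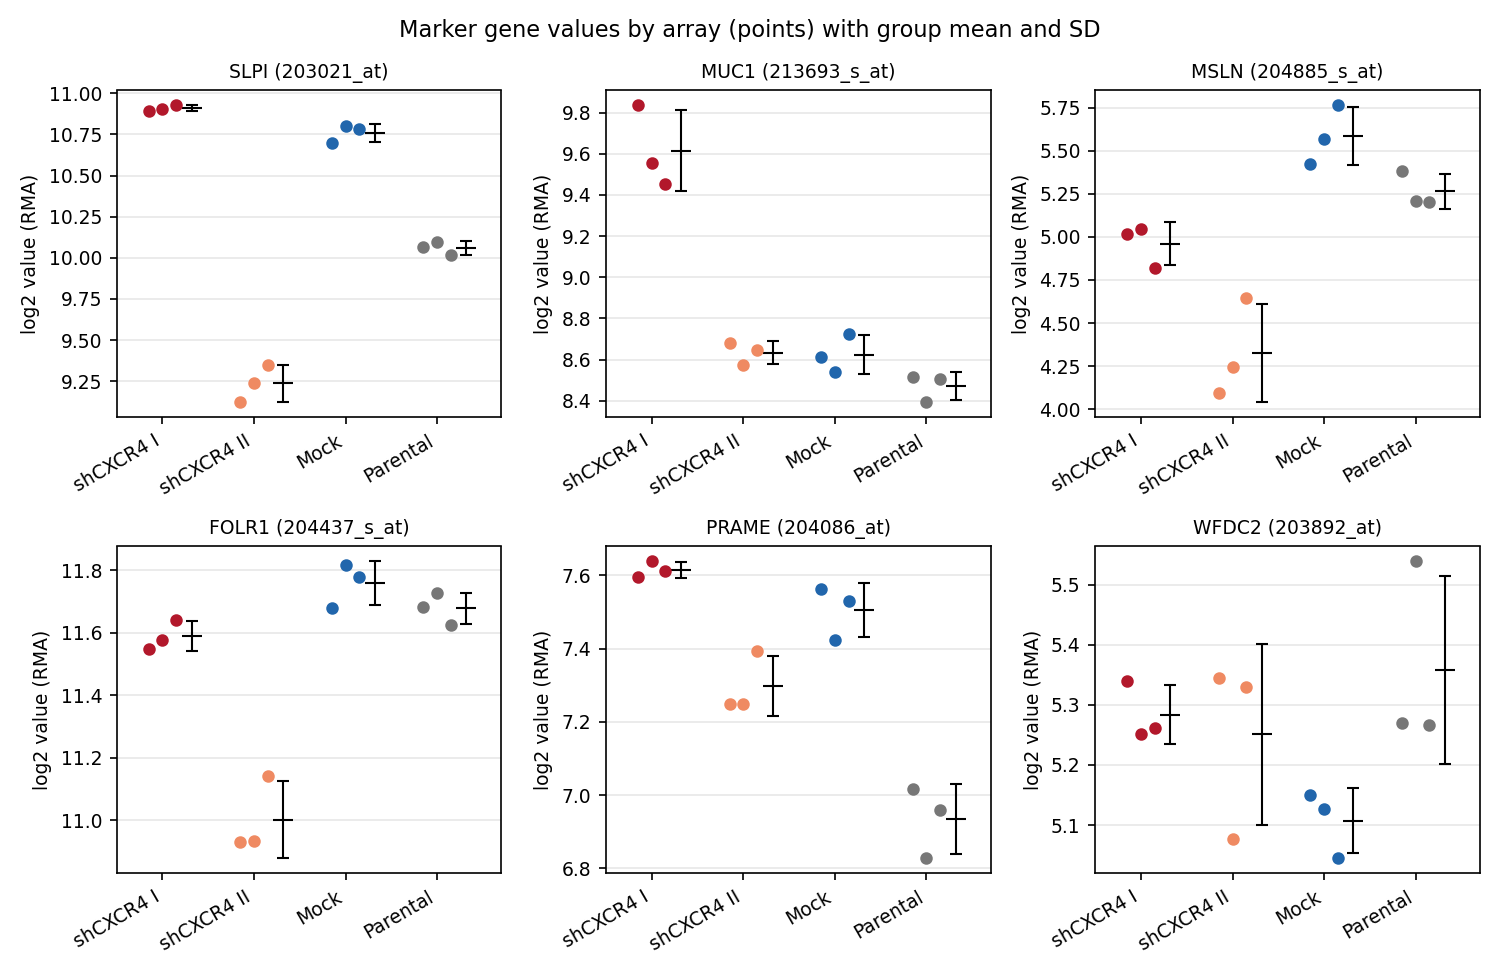
Log2 values (RMA) of 6 probe sets on the 12 arrays, by group, with each group's mean and SD beside the points. SLPI and FOLR1 are lowest in shCXCR4 II, MUC1 is highest in shCXCR4 I, PRAME is lowest in Parental cells, and WFDC2 values span 5.05 to 5.54 over all 12 arrays.

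WFDC2, the HE4 gene, passed in none of the 6 comparisons with limma. Its brightest probe set, 203892_at, had 5.34, 5.25 and 5.26 in shCXCR4 I and 5.34, 5.08 and 5.33 in shCXCR4 II. Mock arrays had 5.15, 5.13 and 5.05, and Parental arrays had 5.27, 5.54 and 5.27. The ranges of shCXCR4 II, shCXCR4 I and Parental cells overlapped. Against Mock the log2 fold change was 0.18 in shCXCR4 I (95% interval -0.02 to 0.37, limma adjusted p = 0.208) and 0.14 in shCXCR4 II (95% interval -0.05 to 0.34, limma adjusted p = 0.29). Mock against Parental gave -0.25 (95% interval -0.45 to -0.06, limma adjusted p = 0.101). The other 2 WFDC2 probe sets lay below the median of every array, at 2.81 to 4.14. Whether values this low stand above the background of the array was not tested.

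SLPI and WFDC2 lie on the same stretch of chromosome 20 in the RefSeq annotation (GRCh38.p14), with 7 protein-coding genes between them. The stretch holds many genes of the whey acidic protein and Kunitz inhibitor families. Of 24 measured genes there, SLPI and WFDC2 included, 4 differed between the clones, 3 higher and 1 lower in shCXCR4 I, where 3.56% of all genes were higher and 1.65% lower. SLPI, the elastase inhibitor PI3 (elafin) and the heparan sulfate proteoglycan SDC4 were higher in shCXCR4 I, and the ubiquitin conjugating enzyme UBE2C was lower. PI3 fell in shCXCR4 I by 0.40 (limma adjusted p = 0.00367) and in shCXCR4 II by 0.88 (limma adjusted p = 6.04e-06) against Mock, and the clones differed by 0.48 (limma adjusted p = 0.00404). SDC4 fell in shCXCR4 II against Mock by 0.29 (limma adjusted p = 0.0129). In shCXCR4 I it had 0.16 against Mock (limma adjusted p = 0.142). Over the list of other genes of this stretch, to which WFDC1 on another chromosome was added, 1 of 23 rose and 2 fell in shCXCR4 I against Mock, where 8.45% and 12.2% of 19775 genes did. In shCXCR4 II none rose and 2 fell, where 9.08% and 13.4% of all genes did. The list's median was 0.06 and 0.07, against 0.02 and 0.02 over all genes. Of the genes around SLPI, PI3 and SDC4 alone passed in shCXCR4 II against Mock with limma.

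**Figure D3:**
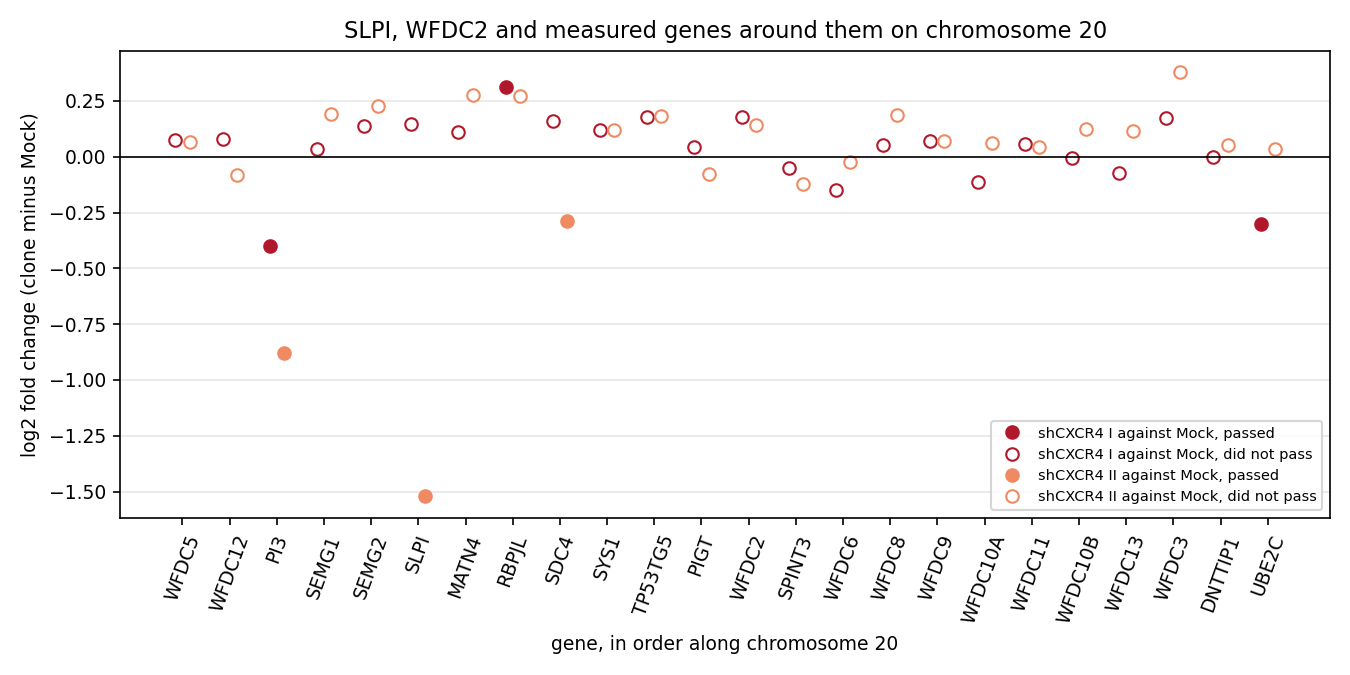
Log2 fold change of each shCXCR4 clone against Mock (vertical axis) for SLPI, WFDC2 and measured genes around them, 24 in all, in their order along chromosome 20. Filled points passed limma's test; SLPI at -1.52 and PI3 at -0.88 in shCXCR4 II lie farthest from 0.

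MUC1 was high in shCXCR4 I on each of its 3 probe sets. On 213693_s_at the log2 values were 9.83, 9.56 and 9.45 in shCXCR4 I and 8.68, 8.57 and 8.65 in shCXCR4 II. Mock arrays had 8.61, 8.54 and 8.72, and Parental arrays had 8.52, 8.40 and 8.50. The shCXCR4 I arrays lay above all others, and the ranges of shCXCR4 II and Mock overlapped. MUC1 rose in shCXCR4 I against Mock by 0.99 (SE 0.09, limma adjusted p = 6.72e-06) on 213693_s_at. On 207847_s_at it rose by 0.97 (SE 0.15, limma adjusted p = 0.000459) and on 211695_x_at by 0.98 (SE 0.12, limma adjusted p = 6.36e-05). The 3 sets thus gave sizes within their standard errors of each other. Against Parental cells the rises in shCXCR4 I were larger, at 1.14, 1.47 and 1.35 in the same order of probe sets. In shCXCR4 II the change against Mock was 0.01, -0.21 and 0.01, none of which passed, and on 213693_s_at the 95% interval was -0.19 to 0.21. The clones differed on every set, by 0.98, 1.17 and 0.97 (limma adjusted p = 3.41e-05, 0.000452 and 0.000326). Mock exceeded Parental by 0.50 on 207847_s_at (limma adjusted p = 0.0451), by 0.15 on 213693_s_at (limma adjusted p = 0.35) and by 0.37 on 211695_x_at, where it did not pass. The call on 207847_s_at ended without Mock replicate 2 (limma adjusted p = 0.0809) or 3 (0.163) and without Parental replicate 1 (0.132), 2 (0.0783) or 3 (0.117).

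MUC16, the CA125 gene, lay below the median of every array. Its probe set 220196_at had 2.88, 2.61 and 2.91 in shCXCR4 I, 3.00, 3.11 and 2.73 in shCXCR4 II, 3.09, 2.89 and 2.73 in Mock, and 3.04, 3.57 and 3.12 in Parental cells. The groups overlapped, except that each shCXCR4 I array lay below each Parental array. That difference was -0.45 (95% interval -0.75 to -0.14, limma adjusted p = 0.0591) and did not pass. It passed under 6 of the alternatives tried, at adjusted p of 0.0321 to 0.0489. Against Mock MUC16 had -0.10 in shCXCR4 I and 0.05 in shCXCR4 II (limma adjusted p = 0.684 and 0.853). Of 15 other genes measured from a list of mucins, sialomucins and the adhesion molecule MCAM, 2 rose and none fell in shCXCR4 I against Mock. In shCXCR4 II 3 rose, MCAM among them, and none fell. Over all genes 8.45% rose and 12.2% fell in shCXCR4 I, and 9.08% rose and 13.4% fell in shCXCR4 II. The gel-forming mucin MUC5AC rose in both clones against Mock, by 0.56 and 0.65 (limma adjusted p = 0.00956 and 0.00371). Against Parental cells MUC5AC passed in neither clone. The median of these genes was 0.15 and 0.12 against Mock, and 0.02 over all genes in each comparison.

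MSLN was lower in both clones than in Mock. Its values on 204885_s_at were 5.01, 5.05 and 4.82 in shCXCR4 I and 4.09, 4.25 and 4.64 in shCXCR4 II, against 5.42, 5.57 and 5.76 in Mock and 5.38, 5.21 and 5.20 in Parental cells. The shCXCR4 II arrays lay lowest, the shCXCR4 I arrays above them, and the control arrays above both, with no overlap between any pair of groups. In 2 of the 3 shCXCR4 II arrays the value lay below the array's own median. MSLN fell against Mock by 0.62 in shCXCR4 I (SE 0.13, limma adjusted p = 0.00395) and by 1.26 in shCXCR4 II (SE 0.13, limma adjusted p = 1.49e-05), which left 64.9% and 41.8% of the Mock value. Against Parental cells it fell in shCXCR4 II by 0.94 (limma adjusted p = 0.000242), while shCXCR4 I had -0.30 (95% interval -0.58 to -0.03, limma adjusted p = 0.155). The clones differed by 0.63 (limma adjusted p = 0.0124). This call ended without shCXCR4 I replicate 1 (limma adjusted p = 0.0562) or 2 (0.0576) and without shCXCR4 II replicate 1 (0.0568) or 2 (0.0576), at differences of 0.52 to 0.61. Its partner MUC16 showed no change past the test, as given above.

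FOLR1 fell in shCXCR4 II. On 204437_s_at the values were 10.93, 10.93 and 11.14 in shCXCR4 II and 11.55, 11.58 and 11.64 in shCXCR4 I. They were 11.68, 11.82 and 11.78 in Mock and 11.68, 11.73 and 11.63 in Parental cells. The shCXCR4 II arrays lay below all others, and Mock and Parental overlapped. The fall was 0.76 against Mock (SE 0.07, limma adjusted p = 1.06e-05) and 0.68 against Parental cells (SE 0.07, limma adjusted p = 3.46e-05), and the level in shCXCR4 I exceeded that in shCXCR4 II by 0.59 (limma adjusted p = 0.000466). shCXCR4 I had -0.17 against Mock (95% interval -0.33 to -0.01, limma adjusted p = 0.138). Each shCXCR4 I array lay below each Mock array, and the difference passed under 2 of the alternatives tried (limma adjusted p = 0.024 and 0.0453). The second probe set, 211074_at, spread more widely, with SDs of 0.44, 0.28, 0.47 and 0.18 in shCXCR4 I, shCXCR4 II, Mock and Parental cells. It passed in no comparison with limma. Its change in shCXCR4 II was -0.22 against Mock (95% interval -0.72 to 0.28), where the interval of 204437_s_at was -0.92 to -0.60, and -0.49 against Parental cells (95% interval -0.99 to 0.02), where that of 204437_s_at was -0.84 to -0.52. The intervals of the probe sets overlapped in both comparisons, and the difference between the sets was not tested. Of 12 other genes of folate uptake and use, 2 fell and none rose in shCXCR4 I against Mock. Among all genes 8.45% rose and 12.2% fell. The 2 were the reduced folate carrier SLC19A1, at -0.27 (limma adjusted p = 0.0324), and TYMS, the thymidylate synthase. None passed in shCXCR4 II with limma, where 9.08% of all genes rose and 13.4% fell, and the list's median was -0.06 and -0.05. SLC19A1 also exceeded Parental by 0.30 in Mock (limma adjusted p = 0.0255).

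**Figure D4:**
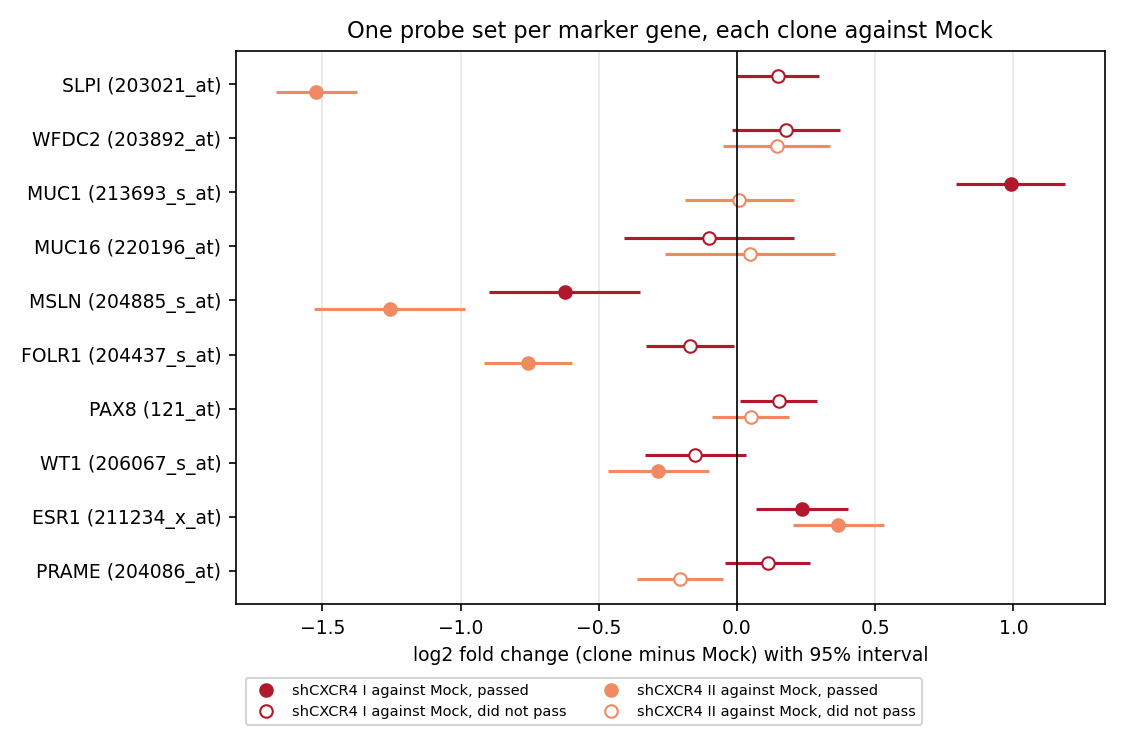
Log2 fold change (point) and 95% interval (line) of each shCXCR4 clone against Mock for the brightest probe set of each of the 10 genes. Filled points passed limma's test; MSLN lies below 0 in both clones, MUC1 lies at 0.99 in shCXCR4 I and at 0.01 in shCXCR4 II, and SLPI and FOLR1 lie at -1.52 and -0.76 in shCXCR4 II.

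PAX8 group means lay close together. On 121_at, the brightest of its 8 probe sets, the group means were 10.20 ± 0.04 in shCXCR4 I, 10.10 ± 0.06 in shCXCR4 II, 10.05 ± 0.08 in Mock and 10.21 ± 0.02 in Parental cells (SD, n = 3 arrays each). The group means of each PAX8 probe set spanned 0.12 to 0.30, less than the 1.67 of SLPI. A single set, 221990_at, passed in a single comparison, with 5.95, 5.68 and 5.92 in shCXCR4 I against 5.64, 5.53 and 5.59 in Mock. The difference was 0.26 (limma adjusted p = 0.0355), and it ended without shCXCR4 I replicate 1 (limma adjusted p = 0.135) or 3 (0.133) and without Mock replicate 2 (0.115) or 3 (0.0717). The call also ended after centring arrays on their medians (0.115) and in a fit of only the groups compared (0.0772). The other 7 sets ranged from 0.10 to 0.21 in that comparison. In shCXCR4 II against Mock the 8 sets ranged from -0.07 to 0.30. The highest, 207923_x_at at 0.30 (limma adjusted p = 0.0577) and 207921_x_at at 0.28 (limma adjusted p = 0.0736), passed under 5 and 4 of the alternatives tried, at adjusted p of 0.016 to 0.0341 and 0.0175 to 0.0444. In Mock against Parental 121_at had -0.16 (limma adjusted p = 0.136) and passed under 3 alternatives. Among the 8 other PAX genes PAX6, a regulator of eye and neural development, was lower in Mock than in Parental cells, by -0.46 (limma adjusted p = 0.00102), and in shCXCR4 I than in Mock, by -0.44 (limma adjusted p = 0.00098). PAX2 alone of them was higher in Mock than in Parental cells past the test. Over all genes 8.08% rose and 4.41% fell in Mock against Parental, and 12.2% fell in shCXCR4 I against Mock. PAX1 and PAX4 rose in shCXCR4 II, where 9.08% of all genes did, and the list had a median of 0.11 in shCXCR4 I and 0.10 in shCXCR4 II.

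WT1 changed little. Its set 206067_s_at had 6.06, 6.26 and 6.26 in shCXCR4 II and 6.26, 6.36 and 6.36 in shCXCR4 I, against 6.46, 6.57 and 6.40 in Mock and 6.26, 6.15 and 6.42 in Parental cells. Both clones lay below every Mock array, and both overlapped the Parental arrays. It fell in shCXCR4 II against Mock by 0.28 (SE 0.08, limma adjusted p = 0.0311), and shCXCR4 I had -0.15 (limma adjusted p = 0.251). The call ended without shCXCR4 II replicate 1 (limma adjusted p = 0.123) and without Mock replicate 1 (0.0571) or 2 (0.114). Against Parental cells shCXCR4 II had -0.08 (95% interval -0.26 to 0.10). The other set, 216953_s_at, lay near the array medians, at 4.14 to 4.47, and had 0.15 in the same comparison (limma adjusted p = 0.182), the opposite sign.

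Among 14 other measured factors of the Müllerian and gonadal lineages, 2 rose and 2 fell in shCXCR4 I against Mock, and 2 rose and 3 fell in shCXCR4 II. Over all genes, 8.45% rose and 12.2% fell in shCXCR4 I, and 9.08% rose and 13.4% fell in shCXCR4 II. LHX1, a homeobox factor of kidney and Müllerian duct formation, fell by 1.18 and 1.06 (limma adjusted p = 5.59e-05 and 0.000169), and FOXL2, an ovarian granulosa cell factor, by 0.81 and 0.70 (limma adjusted p = 1.01e-05 and 3.6e-05). OVGP1, the oviductal glycoprotein, rose by 0.59 and 0.57 (limma adjusted p = 0.000501 and 0.000768). All 3 genes also differed between Mock and Parental cells in the other direction, LHX1 by 0.64, FOXL2 by 0.65 and OVGP1 by -0.31 (limma adjusted p = 0.00899, 0.000102 and 0.0406). LHX1 fell against Parental cells as well in shCXCR4 I, by 0.54 (limma adjusted p = 0.0196), and had -0.42 in shCXCR4 II (limma adjusted p = 0.0683). In the same comparisons FOXL2 had -0.16 and -0.06 and OVGP1 had 0.27 and 0.25, none past the test. The median of the list was -0.03 in shCXCR4 I and 0.03 in shCXCR4 II against Mock.

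ESR1 was low on most of its probe sets. Of the 9 sets, 6 lay below the median of every array, among them 205225_at with values of 2.03 to 2.41. The other 3 ranged from 4.78 to 5.52. Of these, 211234_x_at had 5.17, 5.38 and 5.35 in shCXCR4 I and 5.33, 5.52 and 5.44 in shCXCR4 II, against 5.11, 4.98 and 5.10 in Mock and 5.34, 5.25 and 5.29 in Parental cells. Each clone array lay above each Mock array, and both clones overlapped Parental. The set rose by 0.23 in shCXCR4 I (limma adjusted p = 0.0496) and by 0.37 in shCXCR4 II (limma adjusted p = 0.00484) against Mock. On 211235_s_at the rises were 0.28 and 0.28 (limma adjusted p = 0.0246 and 0.0265). Against Parental cells no ESR1 set passed with limma in either clone; on 211234_x_at the values were 0.00 (95% interval -0.16 to 0.17) and 0.13 (95% interval -0.03 to 0.30). The rise of 211234_x_at in shCXCR4 I ended without shCXCR4 I replicate 2 (limma adjusted p = 0.167) or 3 (0.154) and without Mock replicate 1 (0.0635), 2 (0.171) or 3 (0.0723). That of 211235_s_at ended in shCXCR4 I without its replicate 2 (0.0514) or 3 (0.111) or Mock replicate 3 (0.0991). In shCXCR4 II it ended without its replicate 1 (0.0575) or 2 (0.093) or Mock replicate 3 (0.103). Scaling mattered as well. Centring arrays on their medians ended the rise of 211234_x_at in shCXCR4 I (limma adjusted p = 0.168). It also ended that of 211235_s_at in shCXCR4 I (0.0769) and in shCXCR4 II (0.0988). Quantile normalization ended the rises of 211234_x_at in shCXCR4 I (0.0952) and 211235_s_at in shCXCR4 II (0.0514). The remaining 7 sets did not pass in either clone.

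Of 18 measured genes known as targets of the estrogen receptor, 2 rose and 2 fell in shCXCR4 I against Mock, and 5 rose and 4 fell in shCXCR4 II, with medians of 0.11 and 0.10. The shares over all genes were 8.45% up and 12.2% down in shCXCR4 I, so that 4 of 18 was near the background, and 9.08% up and 13.4% down in shCXCR4 II. The scaffold gene PDZK1 rose by 0.76 and 0.78 and the hormone gene STC2 by 0.62 and 0.54, while the cyclin CCND1 fell by 0.36 and 0.59 (limma adjusted p at most 0.00417 in each). Against Parental cells STC2 rose in both clones, while PDZK1 and CCND1 passed in neither. CCND1 was higher in Mock than in Parental cells, past the test. PDZK1 was lower in Mock than in Parental cells, by -0.92 (limma adjusted p = 3.65e-05), and its means of 3.52, 3.53, 2.75 and 3.68 in shCXCR4 I, shCXCR4 II, Mock and Parental cells were below the array medians. Of 13 other steroid hormone receptors and coregulators, none rose and 1 fell in shCXCR4 I, and 1 rose and 2 fell in shCXCR4 II, with medians of 0.00 and -0.07, beside the same shares over all genes. The coactivator NCOA2 fell in both clones against Mock, by 0.35 and 0.61 (limma adjusted p = 0.0165 and 0.000433). It was higher in Mock than in Parental cells, and against Parental cells it fell past the test in shCXCR4 II alone. The glucocorticoid receptor NR3C1 exceeded Parental by 0.41 in Mock (limma adjusted p = 0.00693).

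PRAME was higher in all 3 transfected groups than in Parental cells. Its values on 204086_at were 7.60, 7.64 and 7.61 in shCXCR4 I, 7.25, 7.25 and 7.39 in shCXCR4 II and 7.56, 7.42 and 7.53 in Mock, against 7.02, 6.83 and 6.96 in Parental cells. No transfected array reached down to a Parental array. The rise against Parental cells was 0.68 in shCXCR4 I (SE 0.07, limma adjusted p = 2.45e-05), 0.36 in shCXCR4 II (SE 0.07, limma adjusted p = 0.00432) and 0.57 in Mock (SE 0.07, limma adjusted p = 0.000153). These 3 comparisons share the Parental arrays. Among the transfected groups shCXCR4 I exceeded shCXCR4 II by 0.32 (limma adjusted p = 0.0246). This call ended without shCXCR4 I replicate 1 (limma adjusted p = 0.0711), 2 (0.0913) or 3 (0.0755) and without shCXCR4 II replicate 1 (0.0806) or 2 (0.0919), and in a fit of only these groups (0.0672). Against Mock shCXCR4 II had -0.21 (95% interval -0.36 to -0.05, limma adjusted p = 0.0591), which did not pass. It passed under 6 of the alternatives tried, at adjusted p of 0.0156 to 0.0393. Mock against Parental gave 3 calls among the 31 probe sets, all up, where 10.5% of all probe sets passed, 6.58% up and 3.9% down. They were PRAME, SLPI and the MUC1 set described above. In a test of the upper 50% of probe sets by mean value 7 members passed, 4 up and 3 down, with the falls in WFDC2 203892_at at -0.25, PAX8 121_at at -0.16 and ESR1 211234_x_at at -0.23. Against Parental cells 5 sets passed in shCXCR4 I, all up, and 4 in shCXCR4 II, 1 up and 3 down, where 12.4% and 12.5% of all sets passed. Over all sets 5.52% rose and 6.89% fell in shCXCR4 I, and 4.88% rose and 7.65% fell in shCXCR4 II.

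Of 12 other cancer testis antigens measured, none passed in shCXCR4 I, shCXCR4 II or Mock against Parental cells with limma. Their medians were 0.07, 0.05 and -0.04, against 0.02, 0.03 and 0.00 over all genes. Over all genes 7.06% rose and 7.44% fell in shCXCR4 I against Parental cells, 6.11% rose and 8.33% fell in shCXCR4 II, and 8.08% rose and 4.41% fell in Mock. Of 16 partners of PRAME and genes of retinoic acid signalling, 1 rose and 1 fell in Mock against Parental cells, 2 rose and 2 fell in shCXCR4 I and 1 rose and 1 fell in shCXCR4 II. CRABP2, which carries retinoic acid to its receptor, rose against Parental cells in each, by 1.18 in shCXCR4 I, 1.22 in shCXCR4 II and 0.80 in Mock (limma adjusted p = 1.34e-07, 9.27e-08 and 7.83e-06). It rose in both clones against Mock as well, by 0.39 and 0.42. RXRB, a partner receptor, fell against Mock by 0.36 in shCXCR4 I and by 0.29 in shCXCR4 II (limma adjusted p = 0.00209 and 0.0104). The retinoic acid receptor RARA had 0.10 and 0.10, neither past the test. DHRS3, another gene of the list, rose in shCXCR4 I and fell in shCXCR4 II against Mock, both past the test. Between the clones it alone of the list passed, 1.14 higher in shCXCR4 I, where 3.56% of all genes were higher and 1.65% lower. Against Parental cells DHRS3 fell by 1.22 in shCXCR4 II and by 0.53 in Mock.

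Further ovarian cancer serum and surface markers were read beside the 10 genes. Of 23 measured, 6 rose and 3 fell in shCXCR4 I against Mock, and 6 rose and 2 fell in shCXCR4 II, with medians of 0.16 and 0.10. Among all genes the shares were 8.45% and 12.2% in shCXCR4 I and 9.08% and 13.4% in shCXCR4 II. S100A1, a calcium binding protein, rose by 0.59 and 0.50 (limma adjusted p = 0.00159 and 0.00533). VTCN1, the immune checkpoint ligand B7-H4, fell by 0.33 and 0.60 (limma adjusted p = 0.00618 and 7.63e-05) and exceeded Parental by 0.82 in Mock (limma adjusted p = 5.39e-06). Between the clones 2 of the 23 were higher in shCXCR4 I (SPP1 and SPON1) and 2 lower (SLC34A2 and CLU), where 3.56% and 1.65% of all genes were. The differences over the list ranged from -0.33 to 0.41. In shCXCR4 I osteopontin (SPP1) exceeded its shCXCR4 II level by 0.30 (limma adjusted p = 0.0104).

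Epithelial markers also differed between the clones. Of 8 epithelial markers 6 were higher in shCXCR4 I than in shCXCR4 II (KRT7, KRT8, KRT18, KRT19, CDH1 and ELF3) and none was lower, where 3.56% and 1.65% of all genes were. The median difference was 0.34, against 0.00 over all genes. CDH1, the adhesion protein E-cadherin, differed by 0.97 (limma adjusted p = 4.43e-06) and the epithelial transcription factor ELF3 by 0.67 (limma adjusted p = 0.000138). Both were lower in Mock than in Parental cells too, by -0.86 and -0.76 (limma adjusted p = 3.36e-06 and 1.53e-05). In that comparison KRT7, KRT18, KRT19 and ESRP1 were higher, and the list's median was 0.20. Over all genes 8.08% rose and 4.41% fell. Against Parental cells CDH1 fell by 0.59 in shCXCR4 I, where 4 of the 8 markers rose. In shCXCR4 II CDH1 fell by 1.56, ELF3 fell as well and none rose. The shares over all genes were 7.06% up and 7.44% down in shCXCR4 I, and 6.11% and 8.33% in shCXCR4 II. Against Mock 3 of the 8 rose in shCXCR4 I (EPCAM, CDH1 and ELF3) and 1 fell (KRT7). In shCXCR4 II none rose and 5 fell (KRT7, KRT18, KRT19, CDH1 and ESRP1). The list's medians against Mock were 0.09 and -0.34. Over all genes 8.45% rose and 12.2% fell in shCXCR4 I against Mock, and 9.08% and 13.4% in shCXCR4 II. The mean log2 value over the list was 8.90 to 8.93 on the shCXCR4 I arrays, 8.47 to 8.53 on shCXCR4 II, 8.81 to 8.91 on Mock and 8.79 on Parental arrays. The same mean for fibroblast markers was 4.15 to 4.20, 4.15 to 4.38, 4.09 to 4.16 and 4.17 to 4.26 in this order of groups. For leukocyte markers it was 3.97 to 4.07, 3.91 to 4.01, 3.76 to 3.84 and 3.92 to 3.96, for endothelial markers 4.35 to 4.48, 4.31 to 4.47, 4.27 to 4.40 and 4.37 to 4.47, and for mesothelial markers 4.84 to 4.88, 4.83 to 5.03, 4.66 to 4.78 and 4.73 to 4.77. The part of the epithelial markers in the differences of SLPI, MUC1, MSLN and FOLR1 between the clones was not tested.

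**Figure D5:**
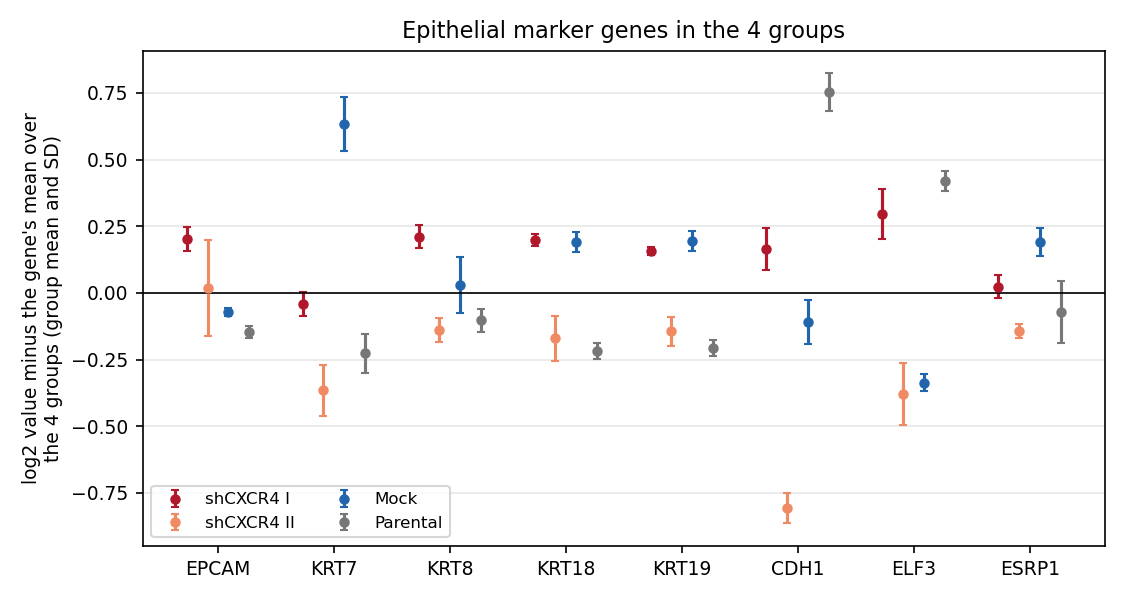
Log2 value of 8 epithelial marker genes in the 4 groups, each minus the gene's mean over the groups (group mean and SD, n = 3 arrays). KRT7, KRT8, KRT18, KRT19, CDH1 and ELF3 lie lower in shCXCR4 II than in shCXCR4 I.

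For the 3 members whose group means spanned at least 1 on the log2 scale, the genes with the nearest pattern over the 12 arrays were found by the root mean square difference of log2 values, each minus its own mean. For SLPI they were PHLDA1, at 0.18, and MPZL2, at 0.22. PHLDA1 averaged 7.93 in shCXCR4 I and 6.61 in shCXCR4 II, against 7.80 in Mock and 6.99 in Parental cells. For MUC1 they were the cytolinker EPPK1, at 0.13, and the mTOR inhibitor DEPTOR, at 0.17. EPPK1 averaged 7.95 in shCXCR4 I and 6.79 in shCXCR4 II, against 7.02 in Mock and 6.87 in Parental cells. MSLN was nearest to the retinol dehydrogenase RDH10, at 0.15, and to ASS1, an enzyme of arginine synthesis, at 0.16. RDH10 averaged 8.41 in shCXCR4 I and 7.91 in shCXCR4 II, against 9.10 in Mock and 8.98 in Parental cells. These genes were chosen for their likeness among 19775 genes and are a description.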

How the data were processed

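Per the submitters' processing notes, the authors deposited RMA values computed in R 2.6.0, which are log2 values, 1 per probe set and array. The sources used here do not name the chip definition file, and no further normalization was applied. Of 54675 probe sets, 41091 carry a single symbol (controls left out), and 41037 of these matched the gene name table by Entrez number. A model of the group means of all 12 arrays was fitted to these in R 4.3.3 with limma 3.58.1 (lmFit, then eBayes; the residual degrees of freedom were 8 and the prior ones 5.67), with Benjamini-Hochberg adjustment over all 41091, and tested on simulated data. Where a gene needs 1 value, the probe set with the highest mean stands for it (19775 genes). The 10 members, the 10 other gene lists (185 of the 208 genes in these and the 5 marker lists were measured) and the naming rule were chosen with earlier results of these data known. The rule named all member probe sets, up to 3 genes of a list that passed with 1 sign in the 2 clones, the largest change of a list in Mock against Parental, and the 2 nearest patterns. Genes beyond it (PAX1, PAX2, PAX4, TYMS, RARA, DHRS3, MCAM, SPP1, SPON1, SLC34A2, CLU, SDC4, UBE2C and the epithelial markers) were named after their values were seen. Alternatives were another scaling, probe set choices, filters on dim sets, variance models, array weights, fewer groups, a replicate block, a stricter threshold and leaving out each array. Figures were drawn with matplotlib 3.10.9 in Python 3.11.15.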

Additional observations from a re-analysis of the deposited data

Results flagged for a closer look

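The changes of the 2 clones against Mock differed in 7 member probe sets by a test of the difference itself, limma's contrast of shCXCR4 I minus shCXCR4 II. The difference was 1.67 for SLPI on 203021_at, where shCXCR4 I had 0.15 and shCXCR4 II -1.52 against Mock. For MUC1 it was 0.98 on 213693_s_at, 1.17 on 207847_s_at and 0.97 on 211695_x_at. It was 0.63 for MSLN on 204885_s_at, 0.59 for FOLR1 on 204437_s_at and 0.32 for PRAME on 204086_at. In all 7 the value of shCXCR4 I exceeded that of shCXCR4 II. MSLN fell in both clones, and its difference is one of size. The groups hold 3 arrays each, too few for a check of single arrays that stand apart.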

How the results depend on the processing

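Of 32 changes of member probe sets past the test, 24 kept direction and call under every alternative run that held the probe set, among them every change of SLPI and FOLR1, MSLN against Mock, MUC1 in shCXCR4 I and PRAME against Parental cells. The other 8 lost the call under at least 1 of 24 settings, none changed sign, and 18 of 154 values short of the threshold gained a call somewhere. For shCXCR4 I against Mock, 7 sets passed as deposited. That count was 4 after centring arrays on their medians, 4 in a fit of only the groups compared and 4 at an adjusted p under 0.01. It was 4 among the 14 sets with a mean log2 of at least 6, 3 with 1 set per gene (10 sets) and 1 of the 14 sets not named _x_at or _s_at; these 3 settings hold fewer sets. Without _x_at and _s_at sets, which removes every set of MUC1, MSLN and WT1, the brighter set of FOLR1, 4 sets of PAX8 and 6 of ESR1, its 3 brightest included, the counts were also 1 for shCXCR4 II against Mock, 2 for shCXCR4 I and 2 for shCXCR4 II against Parental cells, and 2 between the clones. Mock against Parental gave 3 sets, 7 in the upper 50% of sets (4 up, 3 down) and 5 with a trended and robust variance (4 up, 1 down). For shCXCR4 I against Parental cells 5 sets passed, and 9 with array weights. The causes of these changes in count were not tested. Leaving out single arrays gave 4 to 6 sets for shCXCR4 I and 4 to 7 for shCXCR4 II against Mock, 2 to 3 for Mock, 5 to 6 for shCXCR4 I and 4 for shCXCR4 II against Parental cells, and 5 to 7 between the clones. Same-numbered arrays correlated in their deviations from the group means at -0.10 to 0.18, and 2 of 12 arrays correlated best with their own number, so the numbers were not taken as pairs. With the replicate number as a block the counts were 6 for shCXCR4 I and 6 for shCXCR4 II against Mock, 2 for Mock, 5 for shCXCR4 I and 4 for shCXCR4 II against Parental cells, and 7 between the clones. Several members lie below the array medians of 4.25 to 4.39, where the size of a change is least certain.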
